A study of Mus musculus with 14 samples.

Results

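The genes described here build the node of Ranvier, the gap between myelin segments, and the junctions beside it. They are 10 of the 46983 genes in each of the study's tables, taken by symbol: Nfasc, Cntn1, Cntn2, Cntnap1, Cntnap2, Nrcam, Ank3, Ank2, Sptbn4 and Scn8a. All 10 were found in both tables and all 10 carried an adjusted p-value there, so none was lost to the filter on low means. RNA-seq was done on mouse corpus callosum, the large myelinated tract between the hemispheres, with 4 WT and 4 Qk-KO libraries by their labels, and on oligodendrocytes differentiated from neural stem cells in culture, with 3 libraries of each label. The callosum animals, of an FvB/C57BL6 hybrid strain, all carried Plp-CreERT2, a tamoxifen-inducible Cre recombinase whose promoter is active in oligodendrocyte lineage cells. The WT animals were QKLoxP/+ and the Qk-KO animals QKLoxP/LoxP, so the controls also carried the Cre and 1 floxed copy of Qk. All received tamoxifen at 8 weeks of age, and tissue was taken 4 days later. The cultures, from the same hybrid strain, were at passages 7, 12 and 13, 1 library of each label per passage. Their medium, Neurobasal with B-27 and 2 mM GlutaMAX, held the thyroid hormone T3 at 50 ng/ml and the growth factor IGF-1 at 100 ng/ml, and their genotype is labelled WT or Qk-/- with no allele named. Every culture labelled Qk-KO carries 40HT in its description and every culture labelled WT carries EtOH, so treatment and genotype cannot be told apart there.

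At a node, voltage-gated sodium channels are held in the axon membrane by ankyrin-G and beta-IV spectrin and by cell adhesion molecules of the L1 family. On each side, at the paranode, the glial form of neurofascin binds a pair of axonal proteins, contactin-1 and Caspr, and the resulting junction separates the sodium channels from the potassium channels of the juxtaparanode. There contactin-2 and Caspr2 hold the potassium channels in place. Most of these proteins are made by neurons, but oligodendrocytes make the glial neurofascin and also contactin-2. Quaking, the product of Qk, is an RNA-binding protein that acts on the splicing, stability and transport of RNAs in myelinating glia, and the glial form of neurofascin is among the transcripts whose splicing it is known to affect. The tables hold 1 value per gene, so isoforms of Nfasc cannot be separated here.

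Quaking is known to bind a core of ACTAAC or ACTAAT (written as DNA) with TAAC or TAAT nearby. This letter pattern, with 1 to 20 bases between its parts, was searched on the sense strand of the longest protein-coding transcript of each gene (GENCODE M21, build GRCm38). It was present in 3 of the 10 genes, once in each and always in the 3′ UTR, and these stretches are shown with both parts of the pattern in capitals.
Cntnap2: ACTAACggaaagccctgtaagcaaTAAC
Ank3: ACTAATaacagaatataagaatgtTAAC
Scn8a: ACTAATcgtctgtttcttTAAC
The stretch of Cntnap2 lies at chr6:47301330-47301357, that of Ank3 at chr10:70026695-70026722 and that of Scn8a at chr15:101041217-101041238, each on the plus strand. Among transcripts within 25% of the same length, 29.7% held the pattern for the length of Cntnap2, 30.2% for Ank3 and 33.5% for Scn8a, and for the lengths of all 10 transcripts the share ran from 17.2% to 36.5%. Over all protein-coding genes of any length it was 9.9%. Ank2 had no full pattern, but its transcript of 14305 bases held 8 copies of the core alone, 5 in the coding part and 3 in the 3′ UTR, against a median of 3 in transcripts of like length. Cntn2, Cntnap1 and Sptbn4 held neither. A match here is a description of letters and not a binding site, and introns were not searched.

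The library columns of both tables hold fitted model means and not single measurements, which decides how the values below can be read. For Cntn2 in callosum, the authors' deposited table gives 12.39, 12.56, 11.93 and 12.21 for WT replicates 1 to 4 on the log2 scale of the fitted mean plus 1. The libraries labelled Qk-KO stand at 12.93, 12.75, 12.68 and 12.41 in the authors' deposited table. The ranges overlap, but only because library sizes differ. After division by the fitted total of each library, every WT library gives 218 CPM (fitted counts scaled to the same total in every library) and every library labelled Qk-KO gives 362 CPM. The fitted totals ran from 15048646 to 27666519 per callosum library and from 38325833 to 48912999 per culture library. Levels are therefore given once per genotype, and all errors are the standard errors (SE) of the log2 change in the authors' deposited table. CPM was computed here from library totals, while log2 changes and folds use the authors' size factors. A ratio of CPM values is therefore higher than the deposited change, by 0.02 log2 units in callosum and 0.08 in culture. The tables do not say whether libraries came from separate animals or cultures beyond their labels, so p-values measure the spread between these samples.

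Qk itself was not lower in the libraries labelled Qk-KO. Its log2 change was 0.32 ± 0.12 (adjusted p = 0.162) in callosum and it rose by 0.66 ± 0.14 (adjusted p = 4.19e-05) in culture, in the authors' deposited table. Reads outside a floxed segment count toward a gene's total. A loss of that segment can therefore not be read from these values, and genotypes are written here as labelled.

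In the WT callosum the 10 genes stood within 5.86-fold of each other when levels were taken per kilobase of exon. The contactin gene Cntn1, whose product is the axonal partner of Caspr at the paranode, was the highest at 71.9 CPM per kb. Nrcam, an adhesion molecule of the node, followed at 39.9 CPM per kb. Cntnap1, which encodes Caspr, stood at 29.3, the sodium channel gene Scn8a at 26.6, and Ank2, which encodes the axonal adaptor ankyrin-B, at 24.9 CPM per kb. Cntn2 had 23.5 and Nfasc 22.9 CPM per kb. Cntnap2, which encodes Caspr2, had 17.9, the beta-IV spectrin gene Sptbn4 16.1, and Ank3, which encodes ankyrin-G, 12.3 CPM per kb. Exon lengths are the merged exons of all transcripts, which lowers the values of genes with many alternative exons, such as Ank2 (35004 bases) and Ank3 (34838 bases). These fitted levels carry no spread, so neighbours in the order cannot be tested against each other.

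The cultures had a much wider order. In cultures labelled WT, Cntn1 stood at 76.1 CPM per kb, Nfasc at 38.9, Ank2 at 34.6 and Nrcam at 17.4. Cntnap2 followed at 4.22, Scn8a at 1.62 and Ank3 at 1.21 CPM per kb. The lowest were Cntnap1 at 0.276, Sptbn4 at 0.199 and Cntn2 at 0.172 CPM per kb. The range from highest to lowest was 443-fold. Cntn2, in the middle of the callosum order, was last here, and Nfasc stood at place 2 against place 7 in callosum. The tables were normalized separately, so the orders and not the levels are set side by side.

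**Figure D1:**
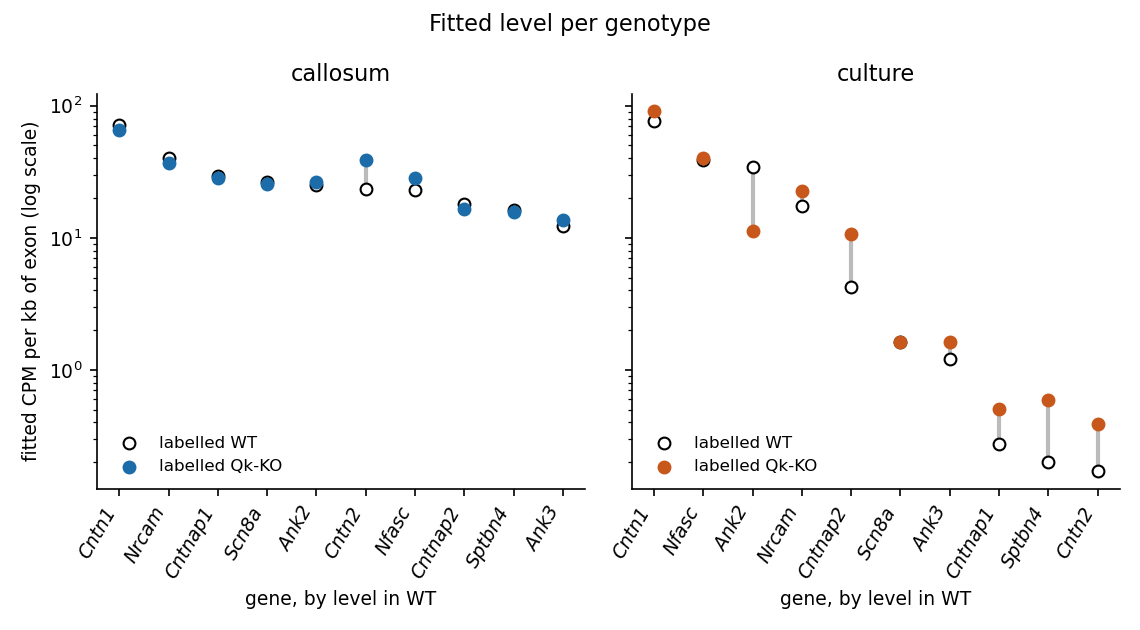
Fitted CPM per kb of merged exons (log scale) of the 10 genes in callosum (left) and culture (right), ordered by the level in libraries labelled WT; open points are WT, filled points Qk-KO, and grey bars join the genotypes. In callosum Cntn2 moves the most, from 23.5 to 38.9, while in culture Ank2 drops from 34.6 to 11.2 and the lowest genes stand higher with the Qk-KO label.

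In the callosum, 1 of the 10 genes changed. Cntn2, which encodes the adhesion protein contactin-2 of the juxtaparanode, made by both axons and oligodendrocytes, rose with the Qk-KO label. In the authors' deposited table its log2 change was 0.70 ± 0.12 (adjusted p = 2.33e-07), which is 1.63-fold. Its level went from 218 to 362 CPM, and its p-value ranked 98 among the 19935 tested genes. Per kilobase it moved from place 6 to place 2 among the 10, from 23.5 to 38.9 CPM per kb. Over all tested genes 2.32% passed an adjusted p under 0.05 in either direction and 2.09% were higher, so a single call among 10 genes is above that share but rests on 1 gene. The call did not hold when the score was read against a Student distribution with 6 degrees of freedom (adjusted p = 0.18), a setting under which 8 genes in all passed.

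The other 9 genes did not pass in callosum. Nfasc, which lies 21.4 kb from Cntn2 on chromosome 1 with no annotated gene between them, came closest with 0.29 ± 0.12 (adjusted p = 0.332, authors' deposited table). Its level stood at 324 CPM with the WT label against 403 CPM with the Qk-KO label, and the 95% interval of its log2 change runs from 0.06 to 0.52. Cntn1 was at -0.17 ± 0.08 (adjusted p = 0.529) in the authors' deposited table, with 678 and 614 CPM. Both had an unadjusted p under 0.05, at 0.0154 and 0.035 in the authors' deposited table. The remaining 7 genes had log2 changes from -0.14 (Cntnap2) to 0.12 (Ank3) and adjusted p-values from 0.975 to 0.9997 in the authors' deposited table. Their standard errors lay between 0.10 and 0.16, and the bounds of their 95% intervals reached from -0.40 (Scn8a) to 0.40 (Ank3). Ank2 had an interval from -0.13 to 0.26. The median of the 10 was -0.06, against -0.01 over all tested genes.

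Cell type markers in callosum give the setting of the Cntn2 value. The mature oligodendrocyte list of 12 genes had 4 rises and no fall, and its summed level went from 7631 to 8168 CPM. Of 12 neuron markers none passed, 11 had negative values, and their summed level went from 6212 to 5739 CPM. The part of these shifts in the Cntn2 value was not tested. In bulk tissue, fewer cells of a type and less RNA per cell cannot be told apart. Neuron markers such as Snap25, a synaptic vesicle fusion protein, were abundant in these libraries (1540 CPM in WT). The microglia list had 7 rises among 8 genes (301 and 694 CPM in sum) and the astrocyte list 2 among 9 (4928 and 6111 CPM). Those 2 astrocyte genes were Gfap, with 228.5 CPM in WT and 965.3 CPM under the Qk-KO label, and Aqp4 (188.4 and 308.3 CPM). The other astrocyte markers did not pass, so the sum is no measure of the list as a whole. Over all tested genes in callosum 2.09% were called higher and 0.231% lower, so no call among the 12 neuron markers is near that share.

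**Figure D2:**
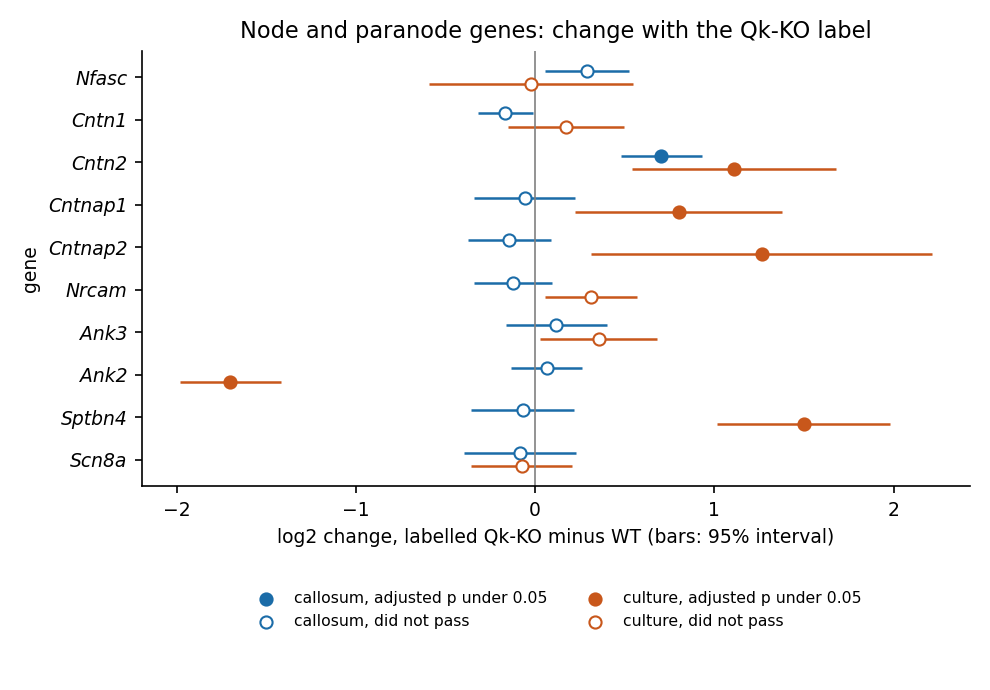
Log2 change, labelled Qk-KO minus WT, of the 10 genes in callosum (blue) and culture (orange), with bars of the 95% interval; filled points passed an adjusted p under 0.05. The blue points lie within 0.3 of 0 except Cntn2 at 0.70, and the orange points spread from Ank2 at -1.70 to Sptbn4 at 1.50.

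In culture, 5 of the 10 genes changed, 4 of them higher and 1 lower. The fall was the largest change in size. Ank2, the ankyrin-B gene, fell to 0.308 of its WT level. In the authors' deposited table its log2 change was -1.70 ± 0.14 (adjusted p = 1.03e-29). Its deposited fitted values were 15.856, 15.504 and 15.627 in the 3 WT libraries and 14.222, 14.104 and 14.001 in the 3 labelled Qk-KO, on the log2 scale of the authors' deposited table. The 2 sets do not overlap, but the spread within each is library size alone, so this says nothing about replicate agreement. After division by library size they become 1213 and 394 CPM. By p-value Ank2 ranked 88 of 17503 tested genes. Over all tested genes 28.6% passed in culture, 13.3% higher and 15.2% lower.

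The 3 lowest genes of the culture order and Cntnap2, at place 5, rose. In the authors' deposited table Sptbn4, the nodal spectrin, rose by 1.50 ± 0.25 on the log2 scale (2.83-fold, adjusted p = 2.52e-08). Cntn2 rose there by 1.11 ± 0.29 (2.16-fold, adjusted p = 9.91e-04, authors' deposited table). Sptbn4 went from 1.91 to 5.69 CPM and Cntn2 from 1.60 to 3.64 CPM. Cntnap1, the Caspr gene, rose by 0.80 ± 0.29 in the authors' deposited table (1.74-fold, adjusted p = 0.0265), with 1.62 CPM in WT against 2.98 CPM under the Qk-KO label. These 3 genes stayed below 6 CPM with either label. Cntnap2, the Caspr2 gene, rose by 1.26 ± 0.49 in the authors' deposited table (2.40-fold, adjusted p = 0.0352). Its level of 43.2 CPM in WT compared with 109 CPM under the Qk-KO label. None of the 5 calls held when the scores were read against a Student distribution with 4 degrees of freedom, a setting under which no gene of the table passed. The adjusted p was then 0.057 for Ank2, 0.0776 for Sptbn4, 0.135 for Cntn2, 0.215 for Cntnap1 and 0.228 for Cntnap2. The call for Cntnap2 was also lost when all genes with a p-value entered the adjustment (adjusted p = 0.0566).

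The called genes lie on different chromosomes of build GRCm38 except that Cntn2 has Nfasc as a neighbour. Ank2 spans chr3:126921612-127499350 on the minus strand, Sptbn4 chr7:27356383-27447686 on the minus strand, Cntnap1 chr11:101170523-101190724 on the plus strand, Cntnap2 chr6:45059357-47304213 on the plus strand and Cntn2 chr1:132509427-132543256 on the minus strand. Exons of some of them overlap others, and the counting is described without a strand setting. Cntnap1 shares 233 exon bases, 3.97% of its total, with Plekhh3 on the opposite strand. Sptbn4 shares 134 bases with Gm20479 on the same strand and 243 with Gm44924 on the opposite strand, and Ank2 shares 182 bases with the antisense gene Gm16958. Reads of the stretch shared on the same strand cannot be assigned to 1 gene. Those of the opposite-strand stretches could be assigned only if the counting used the strand, which is not known.

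The other 5 genes did not pass in culture. Nrcam had 0.31 ± 0.13 (adjusted p = 0.059) and Ank3, the ankyrin-G gene, 0.35 ± 0.17 (adjusted p = 0.0965), in the authors' deposited table. Scaling by library size instead of the authors' size factors raised every culture value by 0.08 on the log2 scale and brought both under the threshold (adjusted p = 0.0134 and 0.0336). It also turned the all-gene split of calls from 2336 higher and 2667 lower to 3054 higher and 2296 lower. Cntn1 stood at 0.17 ± 0.16 (adjusted p = 0.49) in the authors' deposited table, with 718 CPM in WT and 853 CPM in cultures labelled Qk-KO. The sodium channel gene Scn8a had -0.08 ± 0.14 (adjusted p = 0.764), with a 95% interval from -0.36 to 0.21, in the authors' deposited table. Nfasc had -0.02 ± 0.29 (adjusted p = 0.969), with 550 and 571 CPM, in the authors' deposited table. Its interval runs from -0.59 to 0.55, so changes within these bounds are not excluded. The median of the 10 genes was 0.33 in culture, against 0.01 over all tested genes.

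The precision of the culture values was uneven. The deposited culture model held no passage term, so any differences between passages are part of these SEs. The SE of Cntnap2, at 0.49, was larger than that of 99.5% of the 3743 tested genes with a mean count within 2-fold of its own, whose median SE was 0.15. The SE of Nfasc exceeded that of 97.6% of 295 genes of like mean. The SE of Ank2 lay near the middle, above 39.4% of 160 such genes. Above a mean of 1000 counts, 69 of 6586 genes had an SE of at least 0.4, which is 1.05%, and Cntnap2 was the 1 member among them. The limits of 1000 and 0.4 were chosen after the values were seen. Of 7 mature oligodendrocyte markers at such means, 3 were in the same group (Cldn11, Mag and Mbp), and of 9 astrocyte markers none was. In callosum no member stood out in this way, with 8.0% to 77.4% of genes of like mean having a smaller SE.

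**Figure D3:**
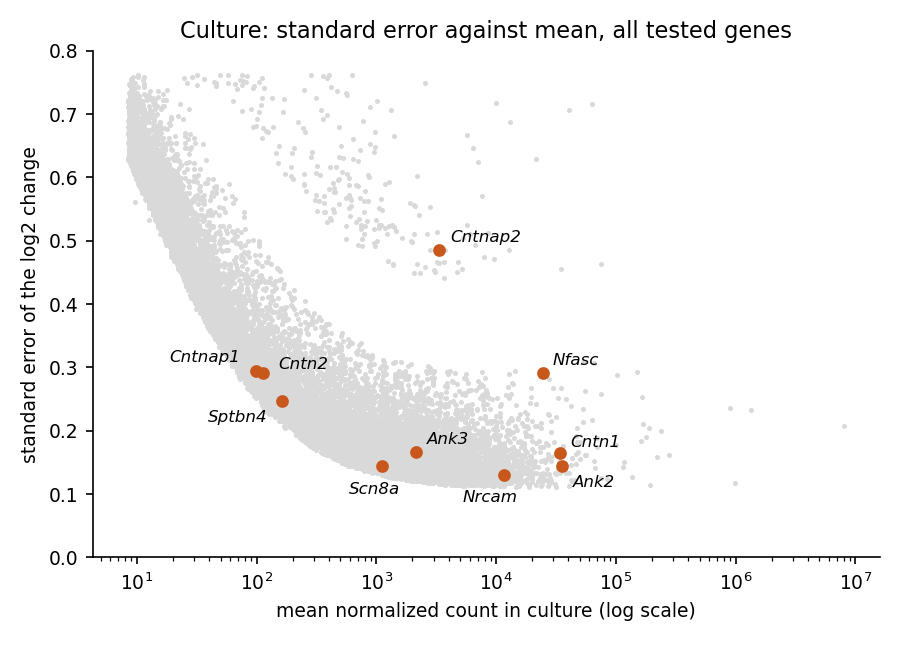
Standard error of the log2 change against mean normalized count (log scale) in culture, for all tested genes (grey) and the 10 node and paranode genes (orange). Cntnap2, at 0.49, lies in a thin upper band apart from the main cloud, Nfasc lies at its upper edge at 0.29, and the other genes lie within it.

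Markers in culture moved widely beside these values. Of 12 neuron markers, 9 rose and none fell, and their summed level went from 783 to 1834 CPM. Most of both sums was 1 gene, Map2, with 686 CPM in WT and 1491 CPM under the Qk-KO label. Snap25 rose 14.3-fold and the neuronal tubulin gene Tubb3 3.33-fold in the authors' deposited table. Of 9 astrocyte markers, 8 fell and none rose, and their summed level went from 14142 to 4144 CPM, a larger sum than that of any other marker list in these cultures. Of 8 precursor markers, 2 rose and 3 fell (3058 and 2782 CPM), and the mature oligodendrocyte list had 2 rises and 2 falls among 12 (3247 and 2605 CPM). Over all tested genes in culture 13.3% were called higher and 15.2% lower. The mature oligodendrocyte counts are near these shares, so they are no result about that list. Stem and cycling cell markers rose in 5 of 6 cases, from 344 to 509 CPM. The microglia markers Trem2 and C1qa were at 0 in culture. The part of these shifts in the values of Ank2, Sptbn4, Cntn2, Cntnap1 and Cntnap2 was not tested.

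Tissue and culture were compared gene by gene with a two-sided z test on the difference of the deposited changes. Of the 10 genes, 4 differed at an adjusted p under 0.05, 3 with culture above callosum and 1 below. Over the 16601 genes tested in both systems 21.5% differed, 9.84% above and 11.7% below. Ank2 differed by -1.76 ± 0.18 log2 units, culture minus callosum (adjusted p = 2.48e-21). Sptbn4 differed by 1.57 ± 0.29 (adjusted p = 1.19e-06), Cntnap2 by 1.41 ± 0.50 (adjusted p = 0.0269) and Cntnap1 by 0.86 ± 0.33 (adjusted p = 0.0424). Cntn2, the 1 gene called higher in both systems, did not differ between them beyond its error (0.40 ± 0.31, adjusted p = 0.407). The interval of that difference runs from -0.21 to 1.02 log2 units, which does not show that the changes are alike. Of all genes tested in both systems 0.235% were called higher in both. The differences of Nrcam (0.44 ± 0.17, adjusted p = 0.0513) and Cntn1 (0.34 ± 0.18, adjusted p = 0.191) did not pass, nor did those of Ank3, Nfasc and Scn8a, with adjusted p-values from 0.515 to 0.986.

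**Figure D4:**
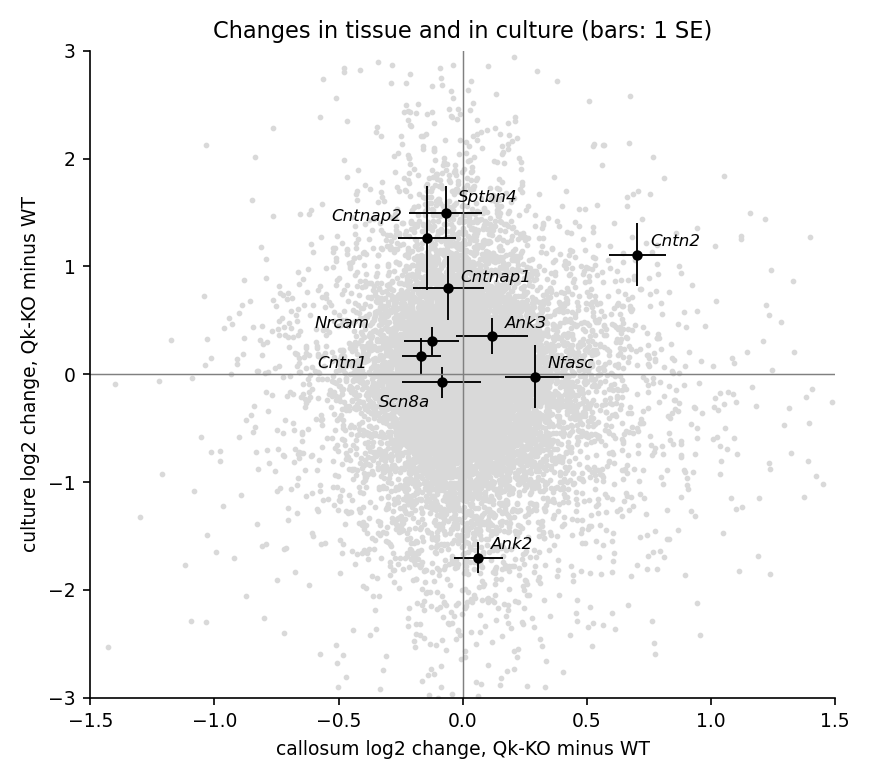
Log2 change with the Qk-KO label in callosum (x axis) and in culture (y axis) for genes tested in both systems (grey) and the 10 node and paranode genes (black, bars of 1 SE); 94 of 16601 genes lie outside the axes. Cntn2 lies to the upper right, Ank2 lies low near the middle of the x axis, and Sptbn4, Cntnap2 and Cntnap1 lie high near 0 in callosum.

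The 2 ankyrin genes and the 2 contactin genes had unlike values in culture. Ank2 fell by 1.70 while Ank3 had 0.35, and Cntn2 rose by 1.11 while Cntn1 had 0.17, as log2 changes in the authors' deposited table. The 2 Caspr genes both rose, Cntnap1 by 0.80 and Cntnap2 by 1.26 (authors' deposited table). Nfasc and Nrcam, both adhesion genes of the L1 family, had log2 changes of -0.02 and 0.31 (authors' deposited table), neither past the threshold. No covariance between genes can be had from fitted means, so these pairs are set side by side without a test.

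Other genes of the same sites were read from fixed lists. Their counts stand against 2.32% of all tested genes called in callosum (2.09% higher, 0.231% lower) and 28.6% in culture (13.3% higher, 15.2% lower). Among 9 genes for channels and channel subunits of the node, none passed in callosum. In culture 8 of them were tested, and 4 rose and 2 fell, against 28.6% of all tested genes called. The sodium channel genes Scn1a (1.78 ± 0.51) and Scn2a1 (1.04 ± 0.23) and the subunit gene Scn2b (0.94 ± 0.34) rose in the authors' deposited table, while the member Scn8a did not pass. Kcnk2, a background potassium channel, fell by 1.13 ± 0.27 and the potassium channel subunit gene Kcnq3 by 0.89 ± 0.25, in the authors' deposited table.

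The matrix around the node had 6 genes on its list, and 1 fell in each system. In culture 1 fall among 6 is near the 15.2% of all tested genes called lower, so it is no result about the list. Hapln2, the link protein of nodal matrix made by oligodendrocytes, fell by 0.86 ± 0.17 in callosum in the authors' deposited table (adjusted p = 6.67e-05). Its level of 39.2 CPM compared with 22.0 CPM, the opposite direction to Cntn2 there. In culture Hapln2 was below 1 CPM and did not pass. Bcan, the proteoglycan brevican, fell by 0.89 ± 0.21 in culture in the authors' deposited table. Tnr, which encodes tenascin-R, did not pass in either system (0.09 ± 0.09 and 0.10 ± 0.16, authors' deposited table).

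The paranode list of 9 genes for cytoskeleton, glycolipid synthesis and membrane proteins had 4 rises in callosum, where 2.09% of all tested genes rose. They were Opalin, a glial protein of paranodal loops (1.16 ± 0.16), the tetraspanin Cd9 (0.88 ± 0.14), and the myelin lipid enzymes Gal3st1 (0.60 ± 0.18) and Fa2h (0.59 ± 0.16), in the authors' deposited table. The spectrin gene Sptan1 had -0.10 ± 0.08 there and did not pass (authors' deposited table). In culture 4 of the 9 rose and 2 fell, against 13.3% and 15.2% of all tested genes. Among them Opalin (1.49 ± 0.58), Fa2h (0.73 ± 0.25) and Sptan1 (0.55 ± 0.12) rose, and Cd9 (-0.61 ± 0.17) and Sptbn1 (-0.37 ± 0.11) fell, in the authors' deposited table. Ugt8a, the galactolipid synthase, did not pass in either system. Opalin and Ugt8a also stand on the mature oligodendrocyte list, so Opalin is counted among the rises of both lists in both systems. The beta spectrin genes Sptbn1 and Sptbn4 went opposite ways in culture, since Sptbn1 fell and the member Sptbn4 rose.

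On the juxtaparanode list of 10 genes, 1 rose in callosum and 2 rose and 1 fell in culture. The culture count is near the 28.6% of all tested genes called there, so it is no result about this site. The callosum call was Epb41l2, a membrane skeleton protein (0.40 ± 0.11, adjusted p = 0.0141, authors' deposited table). In culture Adam22, a receptor at this site, rose by 0.84 ± 0.14 and the scaffold gene Dlg4 by 0.40 ± 0.13, while Adam23 fell by 1.53 ± 0.18, in the authors' deposited table. The potassium channel gene Kcna2, which contactin-2 and Caspr2 anchor, had -0.11 ± 0.14 in callosum and -0.03 ± 0.14 in culture in the authors' deposited table.

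**Figure D5:**
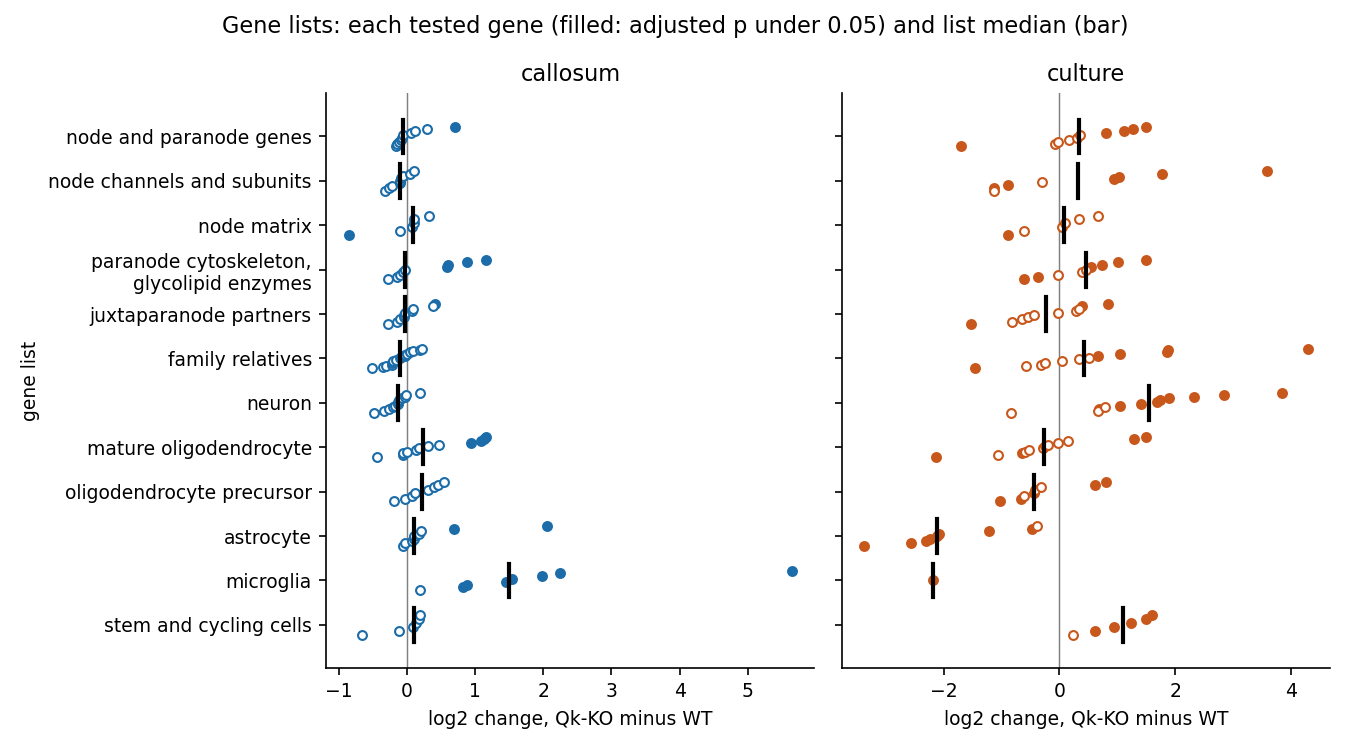
Log2 change, labelled Qk-KO minus WT, of every tested gene of the 10 node and paranode genes, of 5 related lists and of 6 cell type marker lists, in callosum (left) and culture (right, on its own scale); filled points passed an adjusted p under 0.05 and black bars are list medians. In callosum the node and paranode genes sit near 0 apart from Cntn2, with a median of -0.06, and in culture they spread on both sides of a median of 0.33, between neuron markers at 1.55 and astrocyte markers at -2.12.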

How the data were processed

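RNA-seq was measured in 8 callosum and 6 culture libraries. DESeq2, featureCounts, TopHat2 2.0.14, FastQC and the build mm10 stand in the submitters' processing notes, with annotation, strand setting and model not given in the sources used here. The authors deposited, per system, 1 table with log2 library columns, a mean normalized signal, a log2 fold change with its standard error, a score (fold change over standard error) and a p-value with its Benjamini-Hochberg adjusted p-value. The fold change is the log2 ratio of WT over Qk-KO per the file headers and values, and was turned to Qk-KO minus WT. Within a genotype the library columns differ by 1 constant factor (within 1e-08), so they are fitted means without replicate spread. The planned limma alternative was therefore not run, and the deposited DESeq2 statistics (adjusted p under 0.05) are the test. For the cultures the constant factor also shows that the deposited model held no passage term.

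Computed here (Python 3.11.15, scipy 1.17.1, pandas 2.3.3) were fitted CPM, levels per kilobase of merged GENCODE M21 exons (46488 of 46983 identifiers matched without version), 95% intervals (normal, from the SE), and the z test between systems, which was tested on simulated data. The simulation drew normal errors of the size of the deposited SE, so it does not check changes that a model has shrunk. The z test was adjusted over 16601 genes. Intervals cover the deposited error only. Whether the deposited changes were shrunk by the model is not stated. In culture the SE of Itgax was 0.32 at a mean of 0.17 counts, as shrinkage gives, below the 0.49 of Cntnap2. Folds, intervals and differences between systems are read as deposited, without correction for shrinkage. Named genes are the 10 members, Qk, and of each list the called genes (at most 6, or the 4 smallest p per table) and the most abundant uncalled one. Members and lists were chosen with earlier results of these data known. Some genes counted in the lists are not reported here by name.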

Additional observations from a re-analysis of the deposited data

Results flagged for a closer look

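For 4 genes the change with the Qk-KO label differed between culture and callosum in the z test of the difference itself. The difference, culture minus callosum on the log2 scale, was -1.76 for Ank2, where culture fell and callosum had 0.06. It was 1.57 for Sptbn4, 1.41 for Cntnap2 and 0.86 for Cntnap1, where culture rose and callosum had values between -0.14 and -0.06. The samples themselves could not be searched for outlying libraries, because the library columns hold fitted means.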

How the results depend on the processing

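Read against a Student reference, the calls among the 10 genes went from 1 to 0 in callosum and from 5 to 0 in culture, and those of the related and marker lists from 18 to 1 and from 53 to 0. No gene at all passed in culture under that reference, so there it cannot set these genes apart from others. The differences between systems were not read against it. At an adjusted p under 0.01 the culture calls among the 10 genes went from 5 to 3, without Cntnap1 and Cntnap2, and the differences between systems from 4 to 2. With library-size scaling Nfasc (0.054) and Scn8a (0.002) turned positive in culture, both far from the threshold, Nrcam and Ank3 passed in culture, and the difference of Nrcam passed (adjusted p = 0.0236). With genes of a mean of at least 100 only, Nrcam passed in culture (adjusted p = 0.0473), as did its difference (0.0414), and Cntnap1 was not tested. With no filter on low means Cntnap2 did not pass. Apart from these and from calls lost under the Student reference, the results per gene kept their direction and their side of the threshold in the settings run. Leaving out a replicate was not run, because the columns are fitted means. No paired analysis was possible because the library columns carry no replicate spread, although the passage labels pair the cultures. The deposited culture test did not use this pairing, so differences between passages are part of its standard errors and p-values. Cntnap1, Cntn2 and Sptbn4 had a mean of 99.7 to 164 normalized counts in culture, which limits their precision there.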

Other observations

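Relatives of the node genes that are not themselves members gave no call among 17 tested in callosum, and 5 rises and 1 fall among 12 tested in culture. Over all tested genes 2.32% were called in callosum, so no call among 17 is near that share, and 28.6% in culture. L1cam, an axonal adhesion gene of the same family as Nfasc and Nrcam, rose by 4.29 ± 0.32 in culture in the authors' deposited table (19.5-fold). Its level was 0.68 CPM in WT and 14.02 CPM under the Qk-KO label. The contactin gene Cntn3 rose by 1.88 ± 0.29, the ankyrin gene Ank1 by 1.87 ± 0.22, the sodium channel gene Scn3a by 1.04 ± 0.32 and the Caspr family gene Cntnap4 by 0.67 ± 0.26, in the authors' deposited table. In the authors' deposited table Chl1, with 0.34 ± 0.56, was not past the threshold. Ank1, which rose, and Ank2, which fell, are both ankyrin genes.

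Distance to Nfasc in the pair of changes (callosum, culture) was taken over 11035 genes with an SE of at most 0.3 in both tables. With predicted genes, RIKEN clones and pseudogenes left out by symbol, the nearest were Dtx4, Fbxo7, Synj2 and Slc35c1. Their callosum values ran from 0.27 to 0.31 and their culture values from -0.03 to -0.02 in the authors' deposited table, and none passed in either system. The likeness rests on 2 values per gene.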
